A study of Oryza sativa Japonica Group with 6 samples.

Results

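The auxin response genes of rice were described through their 2 core families, the auxin response factors (ARFs) and the Aux/IAA repressors, in young panicles of 187R and NIL-*hfr131*. The members were taken by gene identifier as a list of 56 genes, namely *OsARF1* to *OsARF25* and 31 genes of the Aux/IAA family. Of these, 55 were found among the 42189 genes with deposited values, 25 of the ARF family and 30 of the Aux/IAA family. The Aux/IAA gene LOC_Os01g48450 was not analysed here. Aux/IAA genes are called by their identifiers, since the sources used here pair no names with them.

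Messenger RNA of young panicles sampled before heading was measured by RNA-seq in 3 libraries of 187R and 3 libraries of NIL-*hfr131*. 187R is an *indica* restorer line and carries the allele *HFR131* of *OsBRI1*, the gene of the brassinosteroid receptor, whereas the sample labels give the organism as Oryza sativa Japonica Group. NIL-*hfr131* is a near-isogenic line in the 187R background that carries the allele *hfr131* on a fragment of the long arm of chromosome 1 from the wild rice *Oryza longistaminata*, and its libraries are titled as the mutant of 187R. All 6 libraries are labelled with the treatment "natural", and the labels give no plant age. Since the line is a single introgression line, every gene on the introduced fragment differs by its origin together with *OsBRI1*, and effects of the allele and of the fragment cannot be told apart. The labels call the libraries biological replicates but do not say whether they came from separate plants, and *P* values measure the spread between these libraries.

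ARFs are transcription factors that bind auxin response elements in the promoters of auxin-regulated genes. Aux/IAA proteins bind ARFs and, with co-repressors of the TOPLESS family, keep their target genes repressed. Auxin joins Aux/IAA proteins to receptors of the TIR1/AFB family, which leads to their degradation and releases the ARFs. Many Aux/IAA genes are themselves induced by auxin, and in the panicle the pathway is known for its part in the formation of branches and spikelets and in grain growth. ARFs whose middle region is rich in glutamine activate transcription, and most others repress it. Small RNAs cut the transcripts of several ARFs. In rice, miR167 targets *OsARF6*, *OsARF12*, *OsARF17* and *OsARF25* of the activator class, miR160 targets *OsARF8*, *OsARF10*, *OsARF13*, *OsARF18* and *OsARF22*, and the *TAS3*-derived tasiR-ARF targets *OsARF2*, *OsARF3*, *OsARF14* and *OsARF15*.

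The deposited values are TPM, the length-corrected share of a library's transcripts that a gene accounts for, per 1000000. They hold no sequencing depth, and counting errors can therefore not be computed for any library. Lines were compared on log2(TPM + 1), a scale on which changes of weakly expressed genes come out too small, for the 21531 genes that reached an average of 1 TPM or more over the libraries. Of the 55 members, 49 passed this minimum (24 ARF and 25 Aux/IAA genes) and 6 did not. A log2 fold change is the mean of NIL-*hfr131* minus the mean of 187R with its standard error (SE), and adjusted *P* values come from limma with Benjamini-Hochberg adjustment over all tested genes. In bulk tissue, fewer cells of a type and less RNA per cell cannot be told apart.

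One library stood apart from the rest. NIL-*hfr131* replicate 3 correlated with the other 5 libraries at *r* between 0.916 and 0.937 across genes, whereas the other libraries correlated with each other at up to 0.991. In it, 2899 genes lay more than 1 (log2) from the mean of the other 5 libraries, and the corresponding numbers in the other libraries were 103 to 169. Markers of floral organs were present in every library, with 7 of 7 floral MADS genes above 1 TPM in all of them, and their summed level ranged from 2140 to 2384 TPM in 187R and from 2492 to 2500 TPM in the first pair of NIL-*hfr131* libraries (replicates 1 and 2), with 2283 TPM in replicate 3. The summed level of 7 markers of the tapetum and anther wall, all 7 above 1 TPM in every library, ranged from 2180 to 2478 TPM in 187R and from 3344 to 3528 TPM in that pair, with 2776 TPM in replicate 3. Replicate 3 was the lowest of the 6 libraries for 4 of these 7 markers, against 27.0% of all tested genes, and the highest for 1, against 47.6%. Most of the difference between 187R and that pair came from 1 of the 7, LOC_Os11g37280, at 414 to 509 TPM in 187R and 1211 to 1380 TPM in NIL-*hfr131* (adjusted p = 0.00695, limma), and the other 6 did not pass the test. For 4 meiocyte markers, all 4 above 1 TPM in every library, it was 38.4 to 40.6 TPM, 26.1 to 28.5 TPM and 44.2 TPM, and for 3 green leaf markers, all 3 above 1 TPM in every library, it was 65.0 to 67.2 TPM, 149 to 159 TPM and 119 TPM in the same order. None of the 4 meiocyte markers passed the test with all libraries (lowest adjusted p = 0.589, limma). Replicate 3 was the highest of the 6 libraries for 3 of these 4, against 47.6% of all tested genes. Of the green leaf markers, 2 passed the test with a higher level in NIL-*hfr131*, LOC_Os12g19381 (adjusted p = 0.0154, limma) and LOC_Os12g19470 (adjusted p = 0.0105, limma). The part of tissue makeup in the results on auxin genes was not tested. Where a log2 fold change of a single gene is given below, it stands with and without NIL-*hfr131* replicate 3, and for some genes only levels are given.

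No member of either family passed the test between the lines. At an adjusted *P* under 0.05, 66 of all 21531 tested genes passed (0.307%, limma), and 0 of 24 ARF and 0 of 25 Aux/IAA genes did. At an unadjusted *P* under 0.05, 1799 of all tested genes passed (8.36%), against 4 of the 49 members. These were 1 ARF and 1 Aux/IAA gene with a higher level in NIL-*hfr131*, against 4.05% of all genes, and 2 Aux/IAA genes with a lower level, against 4.31%. Without NIL-*hfr131* replicate 3, 384 of 21276 genes passed the adjusted threshold (1.80%), again with 0 members, and 8 members passed at an unadjusted *P* under 0.05, against 14.8% of all genes. Of those 8, 1 ARF and 2 Aux/IAA genes were higher in NIL-*hfr131*, against 6.91% of all genes, and 3 ARFs and 2 Aux/IAA genes were lower, against 7.86%. The lowest adjusted *P* of any member was 0.423 with all libraries and 0.112 without that library, both for the Aux/IAA gene LOC_Os05g08570 (limma).

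Both families were expressed in the panicles, and the Aux/IAA family at the higher summed level. The 25 ARF genes together reached 930, 822 and 906 TPM in replicates 1, 2 and 3 of 187R, and in the same replicates of NIL-*hfr131* they reached 816, 860 and 1889 TPM. The 30 Aux/IAA genes together reached 2830, 2861 and 2808 TPM in 187R and 2772, 2954 and 3269 TPM in NIL-*hfr131*, in the same order. The ratio of the Aux/IAA sum to the ARF sum was 3.04, 3.48 and 3.10 in 187R, and 3.40, 3.44 and 1.73 in NIL-*hfr131*. Thus in 5 of the 6 libraries the repressor family had a summed level more than 3 times that of the ARFs, and in NIL-*hfr131* replicate 3 the ratio was lower and the ARF sum higher. The log2 ratio of the mean ARF sums of the lines was 0.42, and it was -0.08 without that library. That of the Aux/IAA sums was 0.08 and 0.02.

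The ARF genes shared the level of the family more evenly than the Aux/IAA genes. The 2 highest Aux/IAA genes made up 49.3% of the summed level of their family and the 7 highest made up 87.2%, whereas in the ARF family the 2 highest made up 19.7% and the 7 highest 53.9%. Mean levels over the 6 libraries ran from 0.610 TPM for *OsARF20* to 106 TPM for *OsARF4* among ARFs, and from 0 TPM to 870 TPM for LOC_Os05g14180 among Aux/IAA genes. The members under the minimum were *OsARF20*, LOC_Os02g56120, LOC_Os06g24850, LOC_Os09g35870, and LOC_Os11g11420 and LOC_Os11g11430, which were listed at 0 in all 6 libraries.

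*OsARF17*, an activator-class ARF and the ARF whose binding to the *OsBRI1* promoter the study examined, comes first. In 187R its level was 57.0, 36.7 and 46.1 TPM, and in NIL-*hfr131* it was 47.6, 52.2 and 152 TPM. NIL-*hfr131* replicates 1 and 2 lay inside the range of 187R, and replicate 3 was 3.17 times the mean of the other 5 libraries. The means were 46.6 ± 10.2 TPM in 187R and 83.8 ± 58.8 TPM in NIL-*hfr131* (SD, n = 3). The log2 fold change was 0.65 (SE 0.436, 95% interval -0.39 to 1.68, adjusted p = 0.694, limma). Without NIL-*hfr131* replicate 3 the log2 fold change was 0.12 (SE 0.170, 95% interval -0.28 to 0.52, adjusted p = 0.818, limma). *OsBRI1* itself was at 63.5, 58.7 and 66.7 TPM in 187R and at 68.7, 71.5 and 117 TPM in NIL-*hfr131*. As for *OsARF17*, its highest value was in NIL-*hfr131* replicate 3, at 1.78 times the mean of the others. In contrast to *OsARF17*, the lines did not overlap, and 8.59% of all tested genes were likewise higher in NIL-*hfr131* without overlap. *OsBRI1* did not pass the test (log2 fold change 0.40, adjusted p = 0.685, limma), nor did it without that library, where the log2 fold change was 0.15 (adjusted p = 0.466, limma). In the allele *hfr131* the study found a promoter deletion and an amino acid substitution in the kinase domain of the receptor. It concluded that the substitution led to the lower plant height and grain length. In its reporter assay the promoter with the deletion was more active. By qPCR, *OsBRI1* levels were significantly higher in stem and leaf of NIL-*hfr131*. Those tissues are not measured here.

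The primers that the study designed for this pair of genes are shown because they mark the measured end of *OsARF17* and the promoter fragments tested for its binding. The forward qPCR primer of *OsARF17* begins at its start codon, in capitals, which is also where the gene-specific end of the primer used to clone its coding sequence begins, after vector bases. The primers of 3 fragments of the *OsBRI1* promoter, used for ChIP-qPCR (chromatin immunoprecipitation followed by quantitative PCR) and given here by the forward primer, were searched for TGTCTC, the core form of the auxin response element, on both strands (GAGACA on the other), and the match is in capitals. This motif is shorter than the forms of the element that the study looked for in the promoter, TGTCTAC and, with another base near its end, TGTCTCC.
qARF17 forward: ATGaggctttcgtcgtcgtc
qARF17 reverse: agctacctgttcgctgtgac
ChIP-A5 forward: gatcaggcgatcactgcacc
ChIP-A6 forward: cTGTCTCaggtcataccaaggaag
ChIP-A7 forward: cggttgccggtaagcaatacc

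The element was found in 1 of the 6 ChIP-qPCR primers (16.7%) and in 1 of the 60 primers of the study's list (1.67%), the same primer in both cases, at its positions 2 to 7 counted from the 5′ end. Those longer forms were in 0 of the 60 primers on either strand, so the match is not one of the elements as the study defined them. It is a description of the primer and says nothing of the bases between the primers.

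The other activator-class ARFs were also highest in NIL-*hfr131* replicate 3. *OsARF5*, the ARF with the largest log2 fold change, was at 7.80, 7.24 and 8.08 TPM in 187R and at 9.31, 8.55 and 34.1 TPM in NIL-*hfr131*. Its lines did not overlap, but NIL-*hfr131* replicates 1 and 2 exceeded 187R by little and replicate 3 was 4.16 times the mean of the other 5 libraries. The log2 fold change was 0.80 (SE 0.478, 95% interval -0.33 to 1.93, adjusted p = 0.694, limma) and 0.19 without that library (SE 0.104, adjusted p = 0.466, limma). *OsARF16*, which is known from work on auxin and phosphate response in roots, was at 13.8, 12.1 and 14.6 TPM in 187R and at 11.9, 13.8 and 69.2 TPM in NIL-*hfr131*. That last value was 5.22 times the mean of the other 5, the largest ratio among the ARFs, and the log2 fold change of 0.72 (SE 0.606, adjusted p = 0.694, limma) was -0.06 without that library.

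*OsARF11* and *OsARF19*, also of the activator class, are both known to act on *OsBRI1* in the control of leaf angle. *OsARF19* was at 8.61, 7.91 and 8.81 TPM in 187R and at 7.48, 9.11 and 29.3 TPM in NIL-*hfr131*. Its log2 fold change was 0.54 (SE 0.453, adjusted p = 0.694, limma), and it was -0.03 (SE 0.118, adjusted p = 0.943, limma) without replicate 3 of NIL-*hfr131*, the only library that was apart from the rest. *OsARF11* had a different arrangement. It was at 3.56, 3.87 and 4.47 TPM in 187R and at 2.50, 2.66 and 8.51 TPM in NIL-*hfr131*, so NIL-*hfr131* held the 2 lowest libraries and also the highest. Between the lines the log2 fold change was 0.00 (SE 0.385, adjusted p = 0.998, limma), and without NIL-*hfr131* replicate 3 it was -0.47 (SE 0.130, 95% interval -0.77 to -0.16, unadjusted p = 0.00833, adjusted p = 0.157, limma), the largest negative value of any member in that comparison. It did not pass the adjusted threshold in either.

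The 4 targets of miR167 were all highest in NIL-*hfr131* replicate 3. For *OsARF6*, which is known to act on grain length in rice, the values were 40.5, 36.6 and 38.9 TPM in 187R and 32.1, 38.6 and 121 TPM in NIL-*hfr131*. *OsARF12*, which is known from root growth, had 43.7, 26.0 and 34.0 TPM in 187R and 28.4, 32.2 and 111 TPM in NIL-*hfr131*. *OsARF25* had 34.4, 34.6 and 38.2 TPM in 187R and 35.5, 29.1 and 79.8 TPM in NIL-*hfr131*. In these 3 genes both NIL-*hfr131* replicates 1 and 2 lay inside or below the range of 187R, and replicate 3 was 3.23, 3.38 and 2.32 times the mean of the other 5 libraries for *OsARF6*, *OsARF12* and *OsARF25*. *OsARF21*, the remaining member of the class, had 27.7, 24.3 and 28.2 TPM in 187R and 25.9, 28.0 and 93.3 TPM in NIL-*hfr131*. Its log2 fold change of 0.60 was 0.01 without replicate 3. For *OsARF6*, *OsARF12* and *OsARF25* the log2 fold changes were 0.45, 0.46 and 0.28 with all libraries. Without replicate 3 they turned negative, at -0.13, -0.16 and -0.15.

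**Figure D1:**
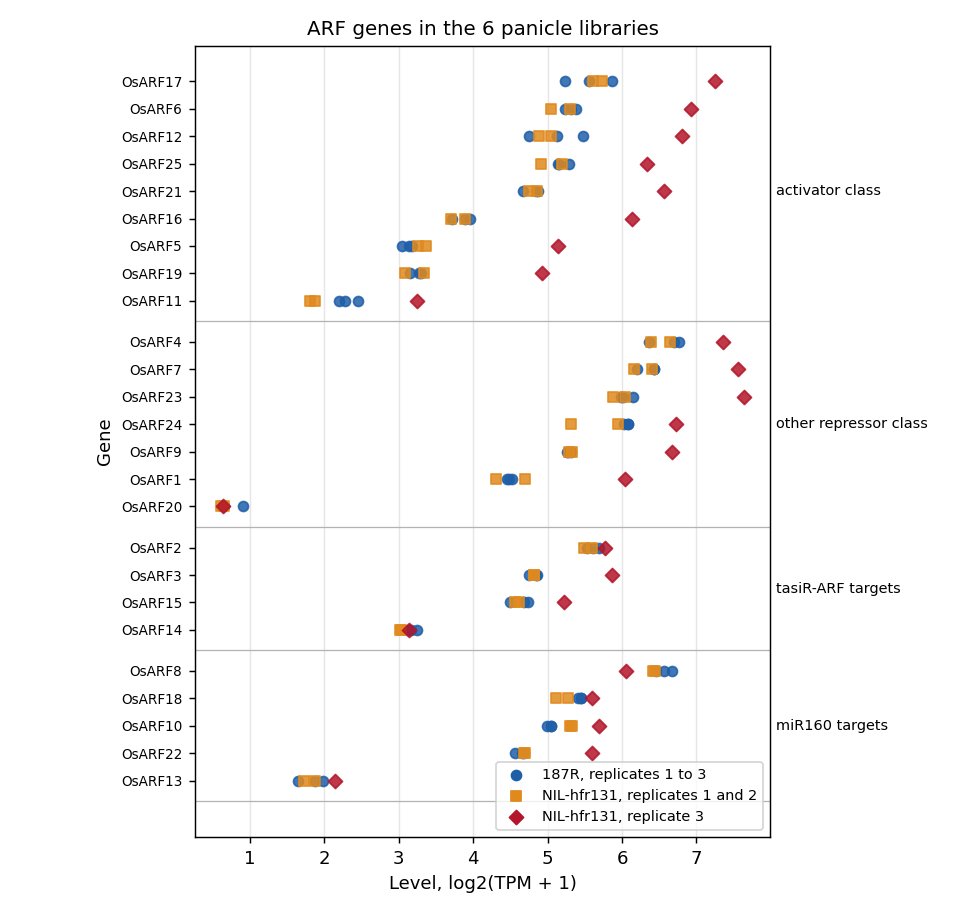
Level of each of the 25 ARF genes in every library, as log2(TPM + 1) on the horizontal axis, with genes in rows grouped by class and ordered by mean level; circles are the 3 libraries of 187R, squares NIL-*hfr131* replicates 1 and 2, and diamonds NIL-*hfr131* replicate 3. The diamonds lie to the right of all other points in all 9 activator-class genes, by 3.17 times the mean of the other 5 libraries for *OsARF17*, whereas for *OsARF8* the diamond lies to the left.

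All 6 tested ARFs of the remaining repressor class were also highest in NIL-*hfr131* replicate 3. *OsARF4*, known as a negative regulator of grain size, had the highest mean level of all ARFs, with 108, 81.4 and 103 TPM in 187R and 83.0, 98.6 and 164 TPM in NIL-*hfr131*. *OsARF7* was at 85.4, 72.7 and 84.8 TPM in 187R and at 70.6, 83.6 and 188 TPM in NIL-*hfr131*. In these genes log2 fold changes of 0.19 for *OsARF4* (adjusted p = 0.764, limma) and 0.36 for *OsARF7* (adjusted p = 0.703, limma) both turned negative without that library, at -0.10 and -0.07. *OsARF1* was at 20.9, 21.3 and 22 TPM in 187R and at 18.7, 25 and 64.6 TPM in NIL-*hfr131*. For *OsARF23* the values were 63.4, 62.1 and 69.9 TPM in 187R and 58.0, 64.6 and 199 TPM in NIL-*hfr131*. Replicate 3 was thus 3.12 times the mean of the other 5 libraries for *OsARF23*. *OsARF9* was at 37.8, 37.2 and 38.9 TPM in 187R and at 38.1, 39.1 and 101 TPM in NIL-*hfr131*, so that 5 libraries of *OsARF9* lay within 37.2 to 39.1 TPM while replicate 3 of NIL-*hfr131* was 2.64 times their mean. *OsARF24*, which acts with *OsARF23* on an actin-organizing gene in rice, differed from these in that 2 of its NIL libraries were apart. In 187R the gene was at 64.4, 66.3 and 66.4 TPM, whereas the values of NIL-*hfr131* were 60.8, 38.7 and 105 TPM, with NIL-*hfr131* replicate 2 the lowest and replicate 3 the highest. Its log2 fold change was -0.06 (SE 0.326, adjusted p = 0.941, limma), -0.43 without replicate 3 (unadjusted p = 0.0380, adjusted p = 0.297, limma) and 0.28 without replicate 2.

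Of the 4 ARFs that are targets of the tasiR-ARF, *OsARF3* was far higher in NIL-*hfr131* replicate 3 than in the other libraries. *OsARF2* was at 50.7, 45.0 and 48.0 TPM in 187R and at 44.1, 47.6 and 53.6 TPM in NIL-*hfr131*, and the lines overlapped (log2 fold change 0.01, SE 0.121, adjusted p = 0.970, limma, and -0.06 without replicate 3). *OsARF3*, a gene of the class related to *ETTIN* of *Arabidopsis*, was at 27.8, 27.9 and 26.0 TPM in 187R and at 27.2, 27.3 and 57.2 TPM in NIL-*hfr131*. Its NIL-*hfr131* replicates 1 and 2 lay within the range of 187R, replicate 3 was 2.10 times the mean of the others, and the log2 fold change of 0.35 (SE 0.284, adjusted p = 0.694, limma) was 0.00 without it (SE 0.0816). Both genes lie on chromosome 1 near *OsBRI1* by locus number, at a distance of 3990 locus numbers for *OsARF2* and 2940 for *OsARF3*, so they could lie on the introduced fragment, and whether they carry the donor allele was not tested. *OsARF14* ranged from 7.11 to 8.46 TPM and *OsARF15* from 21.5 to 36.1 TPM over the 6 libraries.

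With all libraries, the targets of miR160 contained the only ARF with an unadjusted *P* under 0.05. *OsARF10*, a repressor-class ARF, was at 32.1, 30.9 and 32.0 TPM in 187R and at 39.1, 38.5 and 50.8 TPM in NIL-*hfr131*. All 3 libraries of NIL-*hfr131* exceeded all 3 of 187R, with means of 31.6 ± 0.667 and 42.8 ± 6.97 TPM (SD, n = 3). The log2 fold change was 0.41 (SE 0.140, 95% interval 0.08 to 0.75, unadjusted p = 0.0214, adjusted p = 0.492, limma), and without NIL-*hfr131* replicate 3 it was 0.29 (SE 0.0767, unadjusted p = 0.00689, adjusted p = 0.143, limma). It kept its direction and did not pass the adjusted threshold, with adjusted *P* values from 0.143 to 0.904 over the alternative analyses. *OsARF8* was the one ARF with a lower level in all 3 libraries of NIL-*hfr131*. Its values were 101, 87.1 and 93.6 TPM in 187R and 84.3, 86.3 and 65.6 TPM in NIL-*hfr131*, and in contrast to the other ARFs its lowest value was in NIL-*hfr131* replicate 3 (log2 fold change -0.26, SE 0.141, adjusted p = 0.691, limma). Without that library the log2 fold change was -0.13 (SE 0.0870, adjusted p = 0.550, limma). *OsARF18* was at 42.6, 41.3 and 42.8 TPM in 187R and at 33.7, 37.6 and 47.2 TPM in NIL-*hfr131*, lower in replicates 1 and 2 and higher in replicate 3. Its log2 fold change was -0.11 (adjusted p = 0.760, limma). Without replicate 3 it was -0.24 (unadjusted p = 0.0230, adjusted p = 0.243, limma), opposite in direction to *OsARF10*. *OsARF22* ranged from 22.5 to 24.9 TPM outside NIL-*hfr131* replicate 3, where it was 47.6 TPM, and *OsARF13* ranged from 2.12 to 3.41 TPM.

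The distance of NIL-*hfr131* replicate 3 from the other libraries thus differed between the groups of auxin genes. It was measured as the log2(TPM + 1) value in that library minus the mean of the other 5. Over all tested genes the median distance was 0.16, and 2497 genes lay more than 1 above (11.6%) and 402 more than 1 below (1.87%). Of the 24 ARFs, 14 lay more than 1 above and 0 below, with a median of 1.16. By class these were 9 of 9 in the activator class (median 1.69), 4 of 6 in the remaining repressor class (median 1.31), 1 of 4 targets of the tasiR-ARF (median 0.39) and 0 of 5 targets of miR160 (median 0.32). Of the 25 Aux/IAA genes, 0 lay more than 1 from the mean of the others in either direction, and their median of 0.14 was near that of all genes. All of these distances come from 1 library, and they are a description of it with no test.

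The distances were also computed after rescaling the libraries. With median-of-ratios factors, the median distance of all genes was -0.01, that of the ARFs was 0.99 and that of the Aux/IAA genes was -0.04. With quantile normalization the corresponding medians were -0.07, 0.93 and -0.11. Under both, 12 of the 24 ARFs lay more than 1 above the mean of the others, 8 of them of the activator class, and 0 Aux/IAA genes did, against 8.05% of all genes under the former and 7.12% under the latter. Relative to the median of all genes, the ARF median was higher by 1.00 on the deposited values and by 1.00 under each rescaling. That of the Aux/IAA genes was lower by 0.02 to 0.04 on the 3 scales.

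**Figure D2:**
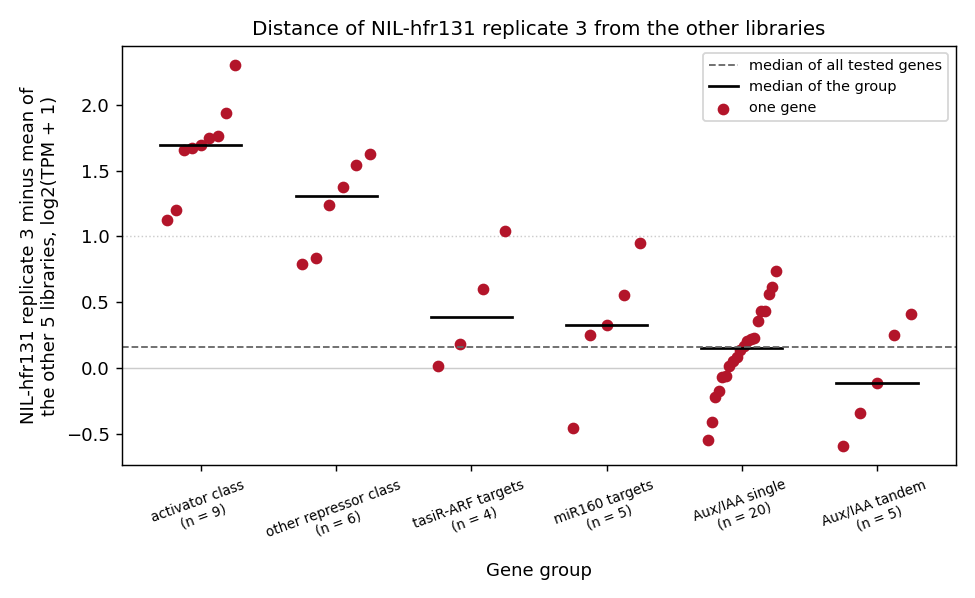
Distance of NIL-*hfr131* replicate 3 from the mean of the other 5 libraries, in log2(TPM + 1) on the vertical axis, for the 49 tested members in 6 groups; each point is a gene, the solid lines are group medians and the dashed line is the median of all tested genes (0.16). All 9 activator-class ARFs lie above the dotted line at 1, and none of the 25 Aux/IAA genes does.

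The library was the highest of the 6 for 22 of 24 ARFs and 12 of 25 Aux/IAA genes, against 47.6% of all tested genes, and the lowest for 1 ARF (*OsARF8*) and 5 Aux/IAA genes, against 27.0%. With all libraries the log2 fold change was above 0 for 20 of 24 ARFs and 15 of 25 Aux/IAA genes, against 57.6% of all tested genes. Without NIL-*hfr131* replicate 3 it was above 0 for 8 of 24 ARFs and 13 of 25 Aux/IAA genes, against 42.3%. The median log2 fold change of the ARFs was 0.36 with that library and -0.06 without it, that of the Aux/IAA genes was 0.10 and 0.00, and that of all genes was 0.05 and -0.03. The median SE of the ARFs was 0.347 with it and 0.104 without it, so the direction of the ARF family between the lines rested on 1 library, and the intervals of single ARFs were wide with it. In the remaining NIL-*hfr131* libraries, 8 of 24 ARFs had a mean above that of 187R, and NIL-*hfr131* replicate 1 was the lowest of the 6 for 10 of 24 ARFs, against 21.4% of all genes. In the other line, 187R replicate 2 was the lowest for 8 of 24 ARFs, against 16.3%.

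The 3 most strongly expressed Aux/IAA genes did not pass the test between the lines. LOC_Os05g14180, the highest of both families, was at 772, 837 and 853 TPM in 187R and at 799, 847 and 1111 TPM in NIL-*hfr131*. Both lines overlapped, and the log2 fold change of 0.15 (SE 0.150, adjusted p = 0.707, limma) was 0.00 without NIL-*hfr131* replicate 3 (SE 0.0921). LOC_Os06g22870 was at 527, 548 and 516 TPM in 187R and at 587, 591 and 645 TPM in NIL-*hfr131*. Its lines did not overlap, with means of 530 ± 16.3 and 608 ± 32.4 TPM (SD, n = 3), and the log2 fold change was 0.20 (SE 0.101, adjusted p = 0.671, limma), and 0.15 without replicate 3 of NIL-*hfr131* (adjusted p = 0.449, limma). LOC_Os03g53150 was at 271, 267 and 244 TPM in 187R and at 262, 274 and 226 TPM in NIL-*hfr131*, and the lines overlapped (log2 fold change -0.04, adjusted p = 0.893, limma, and 0.04 without replicate 3). Next in mean level, the lines overlapped for LOC_Os01g13030 (rank 4). LOC_Os12g40890 (rank 5) and LOC_Os02g57250 (rank 6) were lower in all libraries of NIL-*hfr131* and are described below.

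The Aux/IAA genes with the largest differences went in both directions. LOC_Os05g08570 was at 56.8, 51.2 and 56.0 TPM in 187R and at 66.9, 77.8 and 102 TPM in NIL-*hfr131*. Every library of NIL-*hfr131* exceeded every library of 187R, with means of 54.7 ± 3.04 and 82.4 ± 18.2 TPM (SD, n = 3). The log2 fold change was 0.56 (SE 0.169, 95% interval 0.16 to 0.96, unadjusted p = 0.0128, adjusted p = 0.423, limma). It was 0.40 without NIL-*hfr131* replicate 3 (SE 0.0962, 95% interval 0.17 to 0.62, adjusted p = 0.112, limma), and leaving out single libraries gave values from 0.40 to 0.70. LOC_Os11g11410 was at 43.7, 45.6 and 46.2 TPM in 187R and at 35.6, 38.4 and 27.3 TPM in NIL-*hfr131*. Here every library of NIL-*hfr131* was below every library of 187R, with means of 45.2 ± 1.30 and 33.8 ± 5.77 TPM (SD, n = 3). Its log2 fold change was -0.42 (SE 0.149, 95% interval -0.78 to -0.07, unadjusted p = 0.0255, adjusted p = 0.519, limma) and -0.28 without replicate 3 of NIL-*hfr131* (SE 0.0805, adjusted p = 0.167, limma).

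LOC_Os02g57250 was also lower in all libraries of NIL-*hfr131*. Its values were 218, 208 and 199 TPM in 187R and 175, 180 and 147 TPM in NIL-*hfr131*, with means of 208 ± 9.43 and 167 ± 18.2 TPM (SD, n = 3). The log2 fold change was -0.32 (SE 0.119, unadjusted p = 0.0324, adjusted p = 0.545, limma), and -0.23 (SE 0.0789, adjusted p = 0.245, limma) without NIL-*hfr131* replicate 3. LOC_Os12g40890 was at 271, 274 and 258 TPM in 187R and at 235, 238 and 201 TPM in NIL-*hfr131*, again without overlap (log2 fold change -0.25, SE 0.111, adjusted p = 0.617, limma, and -0.18 without replicate 3, adjusted p = 0.348). In each of LOC_Os11g11410, LOC_Os02g57250 and LOC_Os12g40890 the lowest value was in NIL-*hfr131* replicate 3, and NIL-*hfr131* replicates 1 and 2 were below 187R as well. LOC_Os05g09480, a weakly expressed gene, was at 1.26, 1.12 and 1.33 TPM in 187R and at 2.26, 1.74 and 1.66 TPM in NIL-*hfr131*. It was the only tested Aux/IAA gene whose highest value was in NIL-*hfr131* replicate 1, and its log2 fold change was 0.36 (SE 0.160, adjusted p = 0.624, limma), and 0.42 without replicate 3 (SE 0.145, adjusted p = 0.243, limma).

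**Figure D3:**
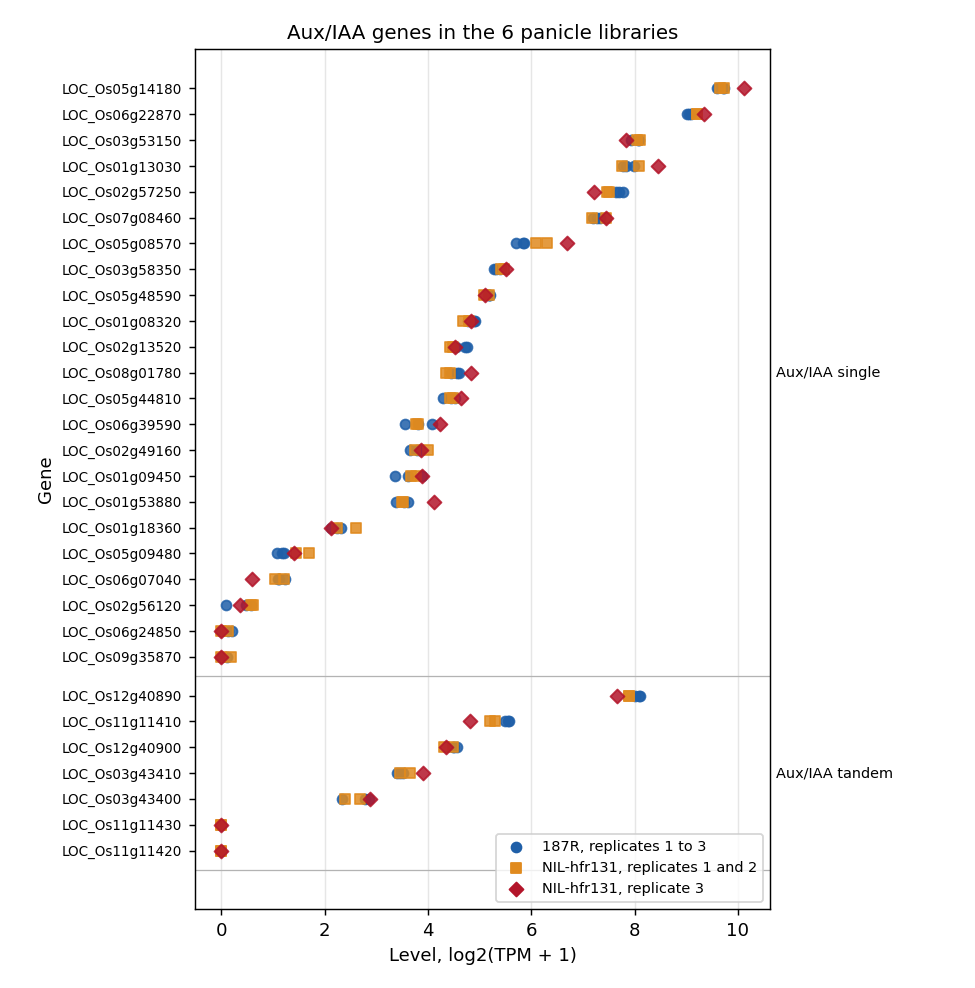
Level of each of the 30 Aux/IAA genes in every library, as log2(TPM + 1) on the horizontal axis, with genes in rows ordered by mean level and tandem neighbours set apart; symbols are those of the plot of ARF levels. The diamonds of NIL-*hfr131* replicate 3 lie among or near the other points, and the orange squares and the diamond lie right of the circles for LOC_Os05g08570 (66.9 to 102 TPM against 51.2 to 56.8 TPM) and left of them for LOC_Os11g11410.

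Some Aux/IAA genes are tandem neighbours, with locus numbers next to each other on a chromosome. These are LOC_Os03g43400 and LOC_Os03g43410, LOC_Os11g11410, LOC_Os11g11420 and LOC_Os11g11430, and LOC_Os12g40890 and LOC_Os12g40900. Their summed level was 352, 357 and 341 TPM in 187R and 304, 315 and 268 TPM in NIL-*hfr131*, so that it was lower in all libraries of NIL-*hfr131*. Most of the sum was from LOC_Os12g40890, and not every neighbour was lower. The lines overlapped for LOC_Os03g43400 and LOC_Os03g43410, with log2 fold changes of -0.01 and 0.21, and of -0.12 and 0.10 without NIL-*hfr131* replicate 3. How the authors' processing assigned reads between neighbours of similar sequence was not tested, and the values of a single neighbour are uncertain to that extent. LOC_Os01g53880, the Aux/IAA gene nearest to *OsBRI1* with a distance of 1830 locus numbers, was at 10.6, 9.42 and 11.3 TPM in 187R and at 10.5, 10.3 and 16.4 TPM in NIL-*hfr131*. Both lines overlapped, and the log2 fold change of 0.20 (SE 0.202, adjusted p = 0.709, limma) was -0.01 without replicate 3 of NIL-*hfr131*. LOC_Os01g53880 could also lie on the introduced fragment, and whether it carries the donor allele was not tested.

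The libraries of the lines did not overlap for 4 of 24 ARFs and 9 of 25 Aux/IAA genes, against 18.5% of all tested genes. Of the ARFs, *OsARF5*, *OsARF10* and *OsARF22* were higher in NIL-*hfr131* and *OsARF8* was lower. Of the Aux/IAA genes, 4 were higher (LOC_Os03g58350, LOC_Os05g08570, LOC_Os05g09480 and LOC_Os06g22870) and 5 were lower (LOC_Os02g13520, LOC_Os02g57250, LOC_Os11g11410, LOC_Os12g40890 and LOC_Os12g40900). Among all tested genes, 8.59% were higher and 9.96% lower without overlap. The Aux/IAA genes were thus divided between both directions, and with 3 libraries against 3 an exact permutation test of a single gene could not go below p = 0.1.

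**Figure D4:**
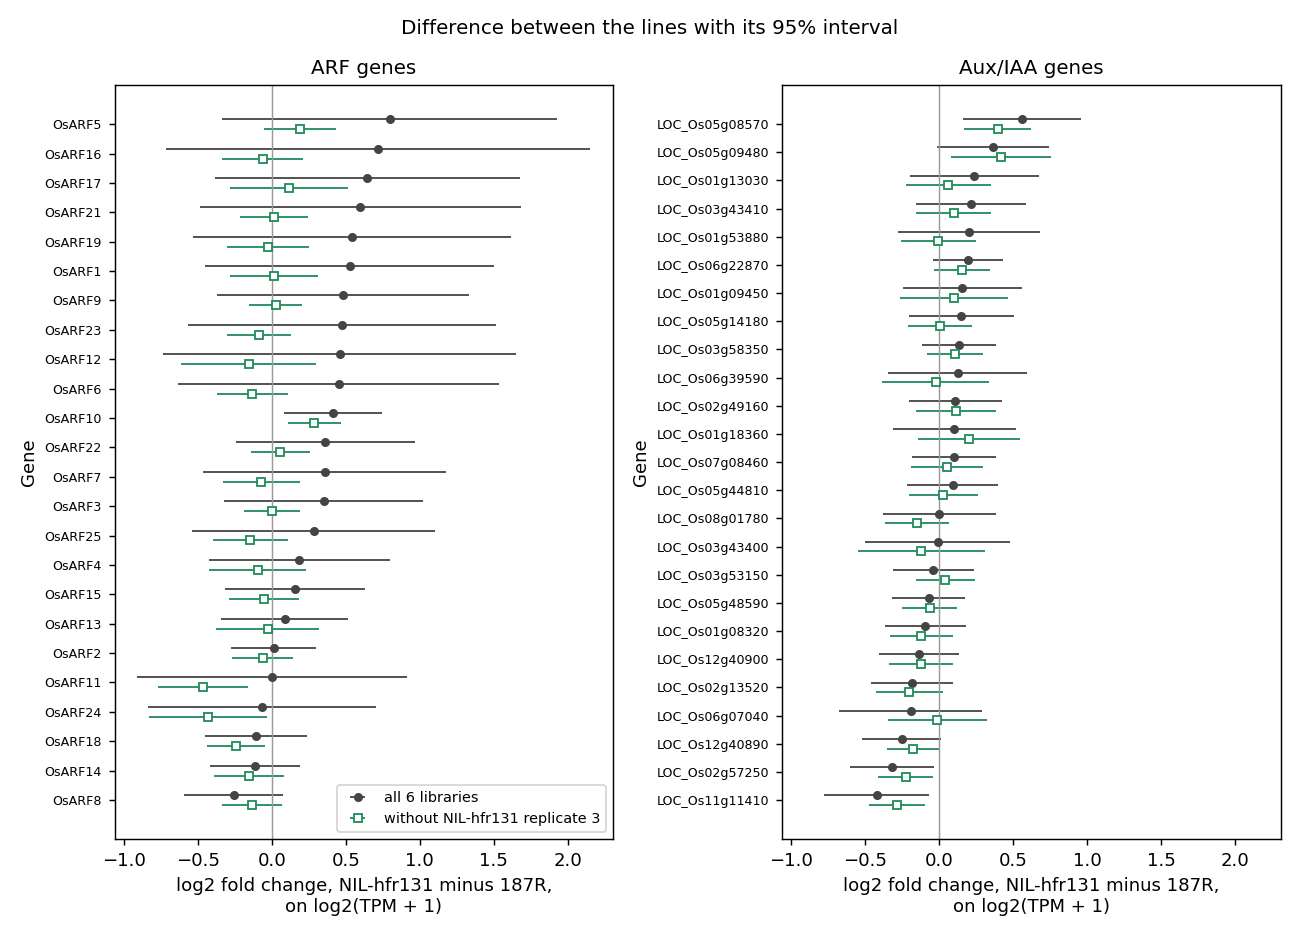
Difference between the lines for the 49 tested members, as log2 fold change of NIL-*hfr131* minus 187R on log2(TPM + 1), with ARF genes on the left and Aux/IAA genes on the right; points are estimates and bars 95% intervals, filled circles for all 6 libraries and open squares without NIL-*hfr131* replicate 3. The ARF circles lie mostly right of 0 with wide intervals (median 0.36) and the squares lie around 0 (median -0.06), whereas circles and squares of most Aux/IAA genes are close together.

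The auxin transport genes whose identifiers the study gives were read beside the response genes. *OsPIN1d* and *OsPIN8* encode auxin efflux carriers and *OsAUX2* an auxin influx carrier. Their log2 fold changes were -0.40 for *OsPIN1d* (adjusted p = 0.584, limma), -0.46 for *OsPIN8* (adjusted p = 0.514, limma) and -0.54 for *OsAUX2* (adjusted p = 0.344, limma). Without replicate 3 of NIL-*hfr131* they were -0.49, -0.44 and -0.47 in the same order, with adjusted *P* values of 0.147, 0.225 and 0.116 (limma). All 3 were lower in every library of NIL-*hfr131* than in any of 187R, which holds for 9.96% of all tested genes, and did not pass the adjusted threshold. *OsPIN8* lies on chromosome 1 nearer to *OsBRI1* by locus number than *OsARF2* and *OsARF3* do, and whether it carries the donor allele was not tested. The study chose them on these libraries, so their direction is not independent evidence.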

How the data were processed

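RNA-seq of young panicles was analysed in 3 libraries of 187R and 3 of NIL-*hfr131*, grouped by the line in their labels. The authors sequenced the libraries on an MGISEQ-2000 platform and deposited TPM values for 42189 genes. Their methods name FPKM, but each library summed to 1000000, so the values were used as TPM. The aligner, genome build and annotation are not given in the sources used here. All 6 columns were used.

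The 21531 genes that averaged 1 TPM or more were kept, and log2(TPM + 1) was fitted in limma (version 3.58.1, R 4.3.3) with the line as its term and a prior variance that followed the mean level. Tests were two-sided, with a threshold of 0.05 after Benjamini-Hochberg adjustment over all tested genes. The script was tested on simulated data. Python 3.11.15 with numpy 2.4.6, pandas 2.3.3 and, for plots, matplotlib 3.10.9 made the summaries.

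The members, gene classes and marker lists were chosen with earlier results of these data known. ARF classes follow textbook knowledge. Members named by rule are *OsARF11*, *OsARF17* and *OsARF19*, those with an unadjusted *P* under 0.05, the 3 highest means and the largest log2 fold change in each direction of each family, and those within 5000 locus numbers of *OsBRI1*, 17 in all. A further 10 were chosen after their values were seen (*OsARF1*, *OsARF6*, *OsARF9*, *OsARF12*, *OsARF16*, *OsARF21*, *OsARF24*, *OsARF25*, LOC_Os05g09480 and LOC_Os12g40890). Of these, *OsARF1* and *OsARF9* are given by levels only. Outside these counts, *OsARF18*, LOC_Os03g43400 and LOC_Os03g43410 are also given with log2 fold changes, and other members by levels, ranges or names only. The alternatives tried were quantile normalization and median-of-ratios factors, a minimum of 5 TPM and none at all, a constant prior, a pseudocount of 0.1, a replicate block and the omission of each library. Primer sequences come from the study's primer list. RefSeq's rice gene table matched 0 of the 42189 identifiers, so no genome positions are given.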

Additional observations from a re-analysis of the deposited data

How the results depend on the processing

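Of all genes, 66 passed the adjusted threshold, 46 to 70 under the other pseudocount, filters, scalings and prior, 16 with the replicate block and 13 to 384 with 1 library left out (limma). The 384 came without NIL-*hfr131* replicate 3, and the counts without each other library were 13 to 28. ARF and Aux/IAA members called were 0 in every alternative run. Same-numbered libraries deviated together with *r* of -0.21, 0.06 and 0.09. Deviations were taken from the mean of only 3 libraries per line, so these values cannot show whether the numbers mark a shared batch. The block changed no call of a member, but 0 members were called without it.

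The log2 ratio of the ARF sums ranged from -0.082 to 0.63 with 1 library left out. Without NIL-*hfr131* replicate 3, 11 of the 27 named members changed sign. The direction of *OsARF2* was turned by median-of-ratios factors (-0.031) and quantile normalization (-0.059), and that of *OsARF11* by a pseudocount of 0.1 (-0.033), median-of-ratios factors (-0.040) and quantile normalization (-0.094). With 1 library left out, log2 fold changes that changed sign ranged from -0.061 to 0.077 for *OsARF2*, -0.10 to 0.39 for *OsARF4*, -0.13 to 0.81 for *OsARF6*, -0.070 to 0.63 for *OsARF7*, -0.47 to 0.25 for *OsARF11*, -0.16 to 0.81 for *OsARF12*, -0.062 to 1.16 for *OsARF16*, -0.027 to 0.89 for *OsARF19*, -0.43 to 0.28 for *OsARF24*, -0.15 to 0.57 for *OsARF25*, -0.0055 to 0.31 for LOC_Os01g53880 and -0.10 to 0.041 for LOC_Os03g53150. The cause was not tested. TPM keeps no depth, so the precision of weakly expressed members is unknown.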
